A study of Mus musculus with 20 samples.

Results

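Hepcidin, the hormone that limits iron in the blood, and 8 further genes of iron handling were measured by RNA-seq in livers with and without hepatocyte *Cideb*. The 9 genes were taken by symbol from a count table of 50559 genes: *Hamp*, *Hamp2*, *Bmp6*, *Hfe*, *Tfr2*, *Tfrc*, *Trf*, *Fth1* and *Slc40a1*. All 9 passed the filter on low counts in every comparison. The study sequenced 20 mouse livers, 5 in each of 4 groups, and every mouse was homozygous for a floxed *Cideb* allele with loxP sites around exon 2. *Cideb* encodes a lipid droplet protein of the liver. WT livers came from *Cideb* fl/fl mice given AAV-TBG-GFP, and KO livers from *Cideb* fl/fl mice given AAV-TBG-Cre. The TBG promoter is active in hepatocytes, so other liver cells keep the gene. The vectors were given at 6 weeks of age. One diet was a Western diet (WD) rich in sugar, fat and cholesterol, and the other a high-fat diet deficient in choline and methionine (CDA-HFD). The labels give 3 months for either diet, and the study's text gives 24 weeks for WD and 12 weeks for CDA-HFD, so that diet and feeding time cannot be told apart. The comparison of KO with WT on each diet asked what loss of hepatocyte *Cideb* does in each model of fatty liver.

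Hepcidin is secreted by hepatocytes and binds ferroportin, the only known iron exporter of mammalian cells, which is then degraded. Its transcription is raised by BMP6 from sinusoidal endothelial cells, which signals through SMAD proteins with HFE and transferrin receptor 2 as sensors of iron-loaded transferrin, and by IL-6, which acts through STAT3. Iron enters cells through the transferrin receptor and is stored in ferritin, and iron regulatory proteins set the translation or stability of several of these mRNAs by binding stem-loops called iron-responsive elements. Mice carry 2 hepcidin genes, *Hamp* and *Hamp2*.

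The libraries held 11697049 to 16827147 reads assigned to genes. *Cideb* itself ranged from 35 to 100 counts in the WT livers and from 0 to 6 in the KO livers. On CDA-HFD, KO liver 5 lay at -41.6 on the first principal component, among the WT livers (-64.5 to -7.77) and away from the other 4 KO livers (43.3 to 66.9), although *Cideb* was low in it. On WD, KO liver 5 had far less *Hamp* than any other liver. For many results, fits without these livers are also given. Hepatocyte markers summed to between 32017 and 98921 CPM (read counts scaled by library) over the 20 livers, and no hepatocyte marker was at 0 in a whole group. In whole liver, fewer cells of a type and less RNA per cell cannot be told apart.

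The promoters of the hepcidin genes are shown first, because the 2 genes are near-copies. *Hamp* lies on chromosome 7 at 30942368 to 30944032 and *Hamp2* at 30922372 to 30924681, both on the minus strand of GRCm38. The 250 bases before each transcription start were identical in 89.7% of aligned columns. The windows below are from RefSeq (GRCm38.p6), begin 130 bases before the start and run 5′ to 3′ on the minus strand, with capitals for GGCGCC, the core of a BMP-responsive element, and TTCTTGGAA, the STAT3 site of hepcidin.
Hamp, chr7:30944090-30944159: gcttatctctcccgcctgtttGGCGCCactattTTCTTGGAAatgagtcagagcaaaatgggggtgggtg
Hamp2, chr7:30924242-30924311: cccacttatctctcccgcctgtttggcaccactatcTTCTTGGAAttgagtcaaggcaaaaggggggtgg
In *Hamp*, GGCGCC began 109 bases before the start. The aligned bases of *Hamp2* were GGCACC, with the change G4A counted from the 5′ end of the site. TTCTTGGAA was present in both, 97 and 94 bases before the start. Both strings were also counted on either strand in the full 250 bases before the start, a longer span than the windows printed. There GGCGCC occurred in 9.59% and TTCTTGGAA in 0.365% of 32851 RefSeq promoters. The 11 promoters matched to the 9 genes came from 7 of them, *Trf* and *Slc40a1* having none. The only other match in these 250 bases was GGCGCC in a *Tfrc* promoter. For *Hamp2*, the window is also within an intron of 1 longer annotated transcript. A match is a string of letters and not evidence of binding. Whether the substitution bears on the level of either gene was not tested.

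Iron-responsive elements were searched for as a C, a stem of 5 bases, a CAGTGN loop and the pairing 5 bases. The search read the lowest-numbered protein-coding GENCODE transcript of each gene, on its own strand. The elements occurred in 3 of the 9 genes, against 248 of 21877 protein-coding genes (1.13%). For *Hfe* the transcript searched has 516 bases, against 3572 bases of exon in all, so most of that gene was not searched. The elements are printed because mRNAs that hold them can also be controlled after transcription, which read counts do not measure. A match is not evidence of such control. Capitals mark the fixed bases CAGTG of the loop.
Fth1 5′ UTR, chr19:9982738-9982754 (plus strand): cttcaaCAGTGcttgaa
Slc40a1 5′ UTR, chr1:45925471-45925487 (minus strand): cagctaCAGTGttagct
Tfrc 3′ UTR, chr16:32631225-32631241 (plus strand): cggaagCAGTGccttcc
Tfrc 3′ UTR, chr16:32631604-32631620 (plus strand): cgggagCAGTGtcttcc
Tfrc 3′ UTR, chr16:32631669-32631685 (plus strand): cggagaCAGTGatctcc
Tfrc 3′ UTR, chr16:32631716-32631732 (plus strand): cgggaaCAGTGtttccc
In *Fth1* and *Slc40a1* the element is before the coding sequence, and in *Tfrc* the 4 elements are after it.

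Copies and overlapping genes limit some of the counts. Of windows of 75 bases, the read length, 3.87% in *Hamp* and 3.76% in *Hamp2* were shared between the 2 genes, and 3.86% in *Fth1* were shared with its pseudogene copy *Gm6977*. In *Trf*, 78.6% of windows were shared with the read-through gene *Gm20425*, so that its level is uncertain. Reads that aligned to more than 1 place were tallied apart from the genes. A noncoding transcript, *Gm44662*, runs across both hepcidin genes on the opposite strand, and the sources used here do not say whether reads were counted by strand.

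Of the 9 genes, *Hamp2* and *Tfr2* were called lower on CDA-HFD in both WT and KO livers, and on CDA-HFD *Bmp6* was called higher and *Fth1* lower in KO than in WT livers. A gene was called at an adjusted p under 0.05 in edgeR's quasi-likelihood test over all genes, and the percentages that follow are the share of all tested genes called. On WD, 0 of the 9 genes were called between KO and WT (0.0757% of all genes), and DESeq2 called 0. An unadjusted p under 0.05 was reached by 0 of the 9 (1702 of all 15848 tested genes). For none of the 9 did the KO and WT livers on WD fail to overlap, which was the case for 2.22% of all genes. On CDA-HFD, 2 of 9 were called between KO and WT (15.5% of all genes), *Bmp6* higher and *Fth1* lower in KO, and the same 2 did not overlap (9.57% of all genes). CDA-HFD against WD called 2 of 9 in WT livers (51.1% of all genes), *Hamp2* and *Tfr2*, both lower on CDA-HFD. Those 2 genes were also the ones without overlap between the diets in WT livers (37.1% of all genes). In KO livers, *Hamp2* and *Tfr2* were again called lower on CDA-HFD (17.0% of all genes). There 3 genes did not overlap, *Fth1* being the third by a narrow margin (15.2% of all genes). In WT livers across diets the share of the 9 that was called was below that of all genes.

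The interaction, which tests whether the KO difference itself differed between the diets, was called for 0 of the 9 genes (0.556% of all genes). At an unadjusted p under 0.05 it also gave 0 (2736 of all 17804 tested genes), and DESeq2 called 0. Its largest log2 estimates were -1.01 (SE 0.84, adjusted p = 0.593) for *Hamp2* and 0.59 (SE 0.63, adjusted p = 0.679) for *Hamp*. For *Bmp6* it was 0.49 (SE 0.24, adjusted p = 0.330) and for *Tfr2* 0.53 (SE 0.29, adjusted p = 0.390), so the KO differences on the diets are given side by side without being called different. The comparisons share livers, since each group enters 2 of them.

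**Figure D1:**
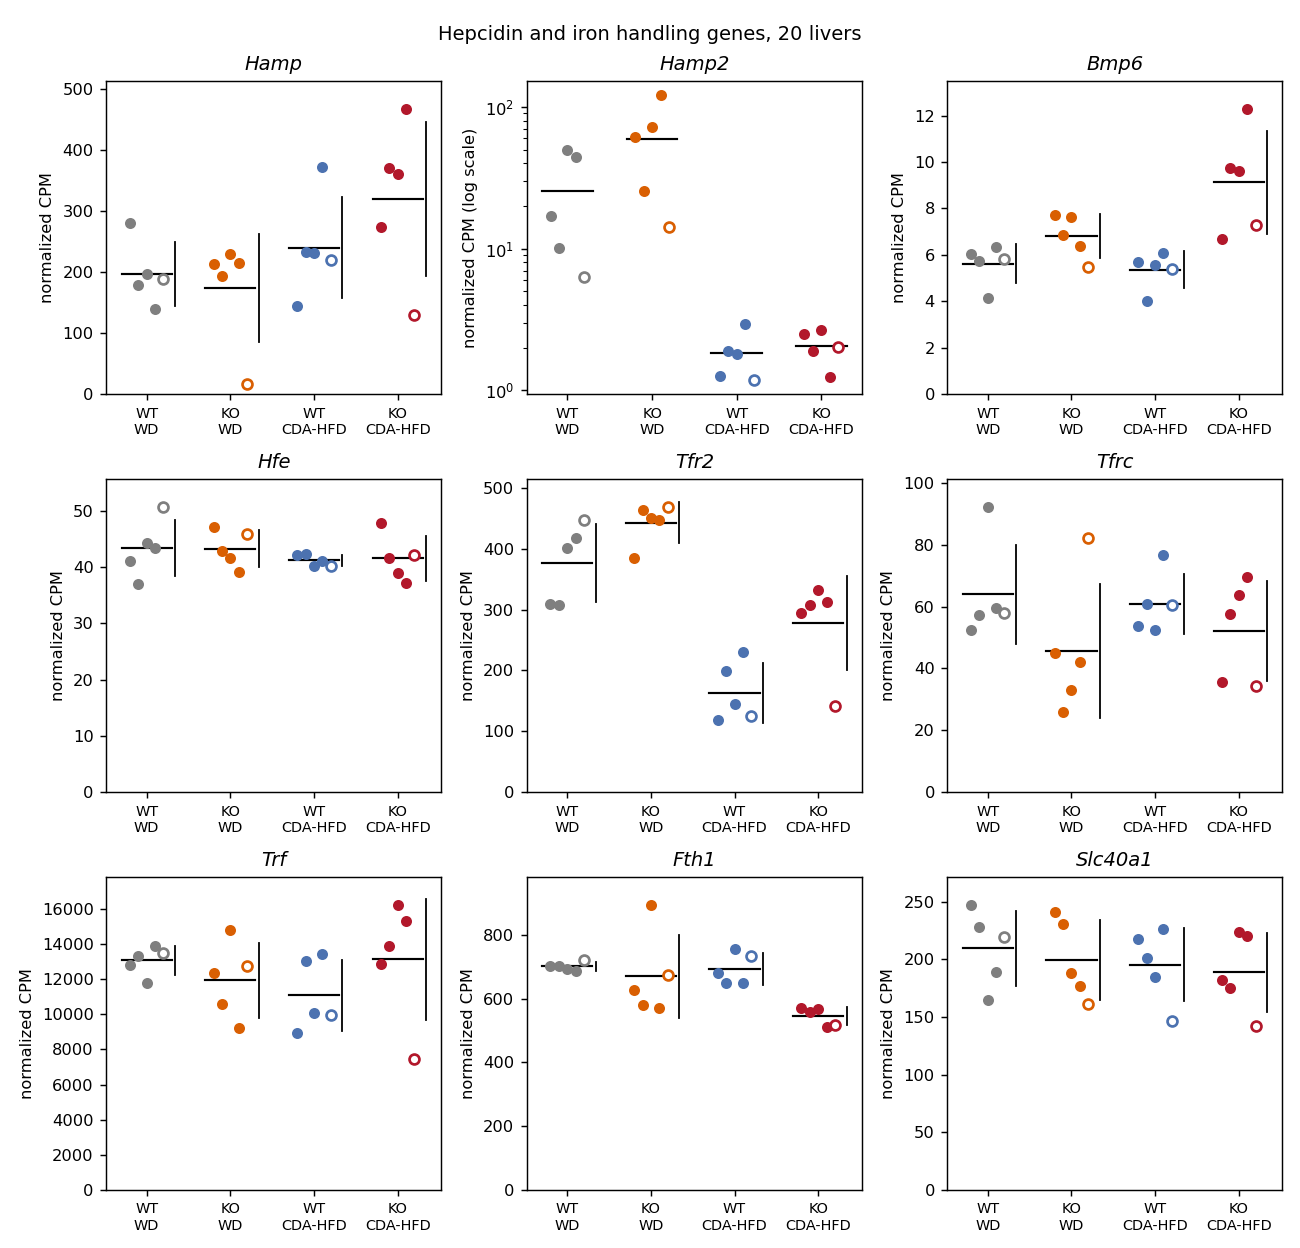
Normalized CPM of the 9 genes in each of 20 livers, by group (x axis); *Hamp2* is on a log axis. Points are livers in the order of their label numbers, open points are the livers numbered 5, horizontal lines are means and vertical lines ± 1 SD (not drawn for *Hamp2*). The 10 CDA-HFD livers lie between 1.19 and 2.95 for *Hamp2*, below all 10 WD livers, and the 5 KO CDA-HFD livers lie above the 5 WT CDA-HFD livers for *Bmp6* and below them for *Fth1*.

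*Hamp*, the main hepcidin gene, varied between livers more than between groups. In WT WD livers 1 to 5 it was at 281, 178, 197, 139 and 189 CPM, and in KO WD livers at 214, 194, 230, 215 and 16.03 CPM. The KO WD livers lay within the range of the WT WD livers except liver 5, which was far below every other liver of the series. In WT CDA-HFD livers it was at 145, 233, 232, 372 and 219 CPM, and in KO CDA-HFD livers at 274, 371, 360, 466 and 129 CPM. Of these, KO liver 5 was the lowest on CDA-HFD and the other 4 KO livers overlapped with the highest WT liver. By group mean the order was KO CDA-HFD, 320 ± 127 CPM (SD, n = 5), then WT CDA-HFD, 240 ± 82.3, WT WD, 197 ± 51.9, and KO WD, 174 ± 89.1, and no neighbours in it were called different. Between KO and WT the log2 fold change was -0.18 (SE 0.48, adjusted p = 0.929 by edgeR) on WD and 0.41 (SE 0.32, adjusted p = 0.381) on CDA-HFD. Without KO WD liver 5 the first became 0.10 (adjusted p = 0.848). Without KO CDA-HFD liver 5 the second became 0.61 (adjusted p = 0.0557). Across diets it was 0.28 (adjusted p = 0.336) in WT livers and 0.87 (adjusted p = 0.283) in KO livers, and without both KO livers numbered 5 the latter was 0.77 with an adjusted p of 0.00756, which, with library-size scaling across diets in WT livers (log2 0.67, adjusted p = 0.0232), was the only setting run that called *Hamp*.

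*Hamp2*, the second mouse hepcidin gene, was far lower on CDA-HFD than on WD. WT WD livers 1 to 5 were at 16.9, 10.04, 49.96, 44.3 and 6.34 CPM, and KO WD livers at 61.7, 25.6, 72.1, 121 and 14.2 CPM. The WD livers thus spread widely within each group and overlapped between WT and KO. On CDA-HFD the WT livers were at 1.27, 1.90, 1.82, 2.95 and 1.19 CPM and the KO livers at 2.50, 1.90, 2.66, 1.25 and 2.03 CPM, from 17 to 44 counts per liver. Every CDA-HFD liver was below every WD liver. On CDA-HFD *Hamp2* was 14.1-fold lower than on WD in WT livers (log2 -3.82, SE 0.58, adjusted p = 0.000266 by edgeR, exact two-sided permutation p = 0.00794), and 28.4-fold lower in KO livers (log2 -4.83, SE 0.56, adjusted p = 0.000339, exact permutation p = 0.00794). No permutation p can be lower than 0.00794 with 5 livers in each group. Between KO and WT it did not pass, with a log2 fold change of 1.21 (SE 0.63, adjusted p = 0.517) on WD, where the mean was 58.9 ± 42.2 CPM in KO and 25.5 ± 20.2 CPM in WT (SD, n = 5), and 0.19 (SE 0.29, adjusted p = 0.670) on CDA-HFD. Without KO WD liver 5 the log2 fold change of *Hamp2* on WD was 1.46 (SE 0.58, unadjusted p = 0.0293, adjusted p = 0.360 by edgeR). In order of level, KO WD and WT WD did not differ beyond their spread, and neither did KO CDA-HFD and WT CDA-HFD.

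The balance of the hepcidin genes moved accordingly. *Hamp2* made up 3.25% to 24.2% of the *Hamp* and *Hamp2* counts in WT WD livers (median 5.68%), and 11.6% to 47.0% in KO WD livers (median 23.9%). On CDA-HFD it made up 0.538% to 0.868% in WT livers and 0.267% to 1.55% in KO livers. The highest KO WD value came from liver 5, in which *Hamp* was low, and the shares of WT and KO overlapped on both diets. *Hamp* per base stayed above *Hamp2* in each group mean, at 480 ± 127 against 43.7 ± 34.6 CPM per kilobase of exon in WT WD livers and at 781 ± 309 against 3.55 ± 0.955 in KO CDA-HFD livers (SD, n = 5).

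**Figure D2:**
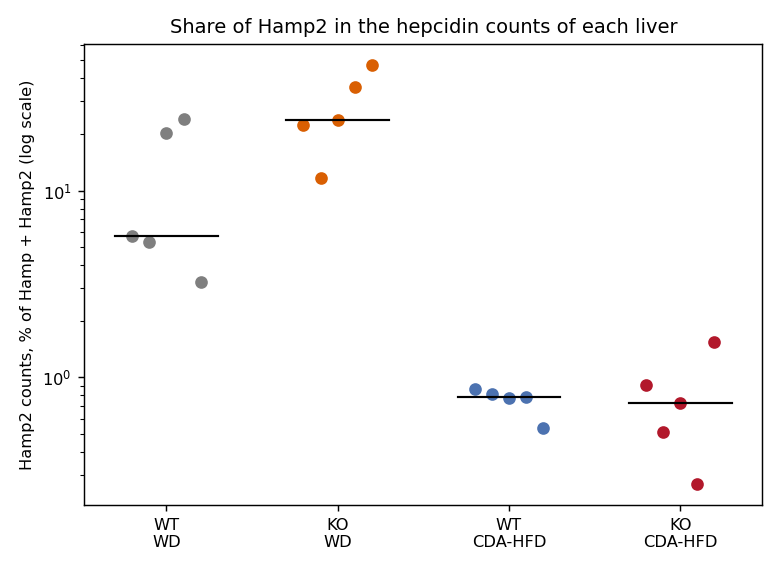
Counts of *Hamp2* as a percentage of *Hamp* plus *Hamp2* counts in each liver, by group, on a log axis; horizontal lines are group medians. The CDA-HFD livers reach at most 1.55% and the WD livers begin at 3.25%, so the diets do not overlap.

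*Bmp6*, the ligand that raises hepcidin, was higher in KO than in WT livers on CDA-HFD. WT CDA-HFD livers 1 to 5 were at 5.70, 4.01, 5.56, 6.10 and 5.41 CPM and KO CDA-HFD livers at 6.68, 9.74, 9.63, 12.3 and 7.30 CPM, so every KO liver was above every WT liver. The difference was 1.69-fold (log2 0.76, SE 0.18, adjusted p = 0.0230 by edgeR, exact permutation p = 0.00794). It was as large without KO liver 5 (log2 0.83, adjusted p = 0.00378). Leaving out each liver in turn gave log2 values of 0.64 to 0.85 and kept the call in 6 of 10 fits, with adjusted p up to 0.0615, and scaling by library size alone gave 0.54 (adjusted p = 0.0685). On WD the WT livers were at 6.02, 5.75, 4.16, 6.34 and 5.83 CPM and the KO livers at 7.72, 6.84, 7.63, 6.37 and 5.47 CPM. These overlapped only through KO liver 5, and the log2 fold change of 0.28 was not called (SE 0.15, adjusted p = 0.535). Without KO liver 5 it was 0.34 (SE 0.15, unadjusted p = 0.0492, adjusted p = 0.415 by edgeR). Across diets *Bmp6* was not called in WT livers (log2 -0.07, adjusted p = 0.719) or in KO livers (log2 0.42, adjusted p = 0.126). With library size alone the latter was 0.64 and called (adjusted p = 0.0264). Without both KO livers numbered 5 it was 0.40 (SE 0.18, unadjusted p = 0.0483, adjusted p = 0.164 by edgeR). *Bmp6* rests on 55 to 167 counts per liver.

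*Bmp6* is made by sinusoidal endothelial cells, whose 9 markers summed to between 658 and 759 CPM in WT CDA-HFD livers and to between 623 and 992 CPM in KO CDA-HFD livers, the lowest being KO liver 5. *Bmp6* was at 7.30 CPM in that liver. Without it, 6 of the 9 endothelial markers were called higher in KO and 0 lower (41.4% of all genes were called in that fit), at a median log2 of 0.42 against 0.01 over all genes. With it 0 were called in edgeR (15.5% of all genes were), and 4 had an unadjusted p under 0.05 (6076 of all 17204 tested genes had). Their part in the *Bmp6* result was not tested.

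*Hfe*, which encodes a membrane protein of the iron sensor, was the steadiest of the 9 genes. It ranged from 37.0 to 50.7 CPM over the 20 livers, and group means lay between 41.2 and 43.3 CPM. Its log2 fold changes lay between -0.08 and 0.01 in the 4 comparisons of groups, and its largest adjusted p was 0.999 by edgeR.

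*Tfr2*, the transferrin receptor that acts as an iron sensor in hepatocytes, was lower on CDA-HFD. WT WD livers 1 to 5 were at 309, 308, 401, 417 and 448 CPM and WT CDA-HFD livers at 119, 199, 144, 231 and 124 CPM, without overlap. This was 2.31-fold lower (log2 -1.21, SE 0.20, adjusted p = 0.000417 by edgeR, exact permutation p = 0.00794), and every alternative kept the call. KO WD livers were at 385, 464, 452, 447 and 468 CPM and KO CDA-HFD livers at 295, 308, 332, 312 and 141 CPM, again without overlap. Here the level was 1.61-fold lower on CDA-HFD (log2 -0.68, SE 0.19, adjusted p = 0.0344, exact permutation p = 0.00794). That call held in 4 of 10 fits with a liver left out, whose adjusted p reached 0.0724, and KO CDA-HFD liver 5 was lowest. Without that liver the log2 fold change was -0.52 (adjusted p = 0.00297).

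On CDA-HFD, 4 of the 5 KO livers held more *Tfr2* than any WT liver, and KO liver 5 lay within the WT range. The log2 fold change of 0.76 (SE 0.26) was not called at an adjusted p of 0.0645, with an exact permutation p of 0.0317. Without KO liver 5 it was 0.93 (SE 0.19, adjusted p = 0.00297). DESeq2, with an adjusted p of 0.0238, and the fit over all 20 livers, with 0.0138, also called it. On WD it was 0.24 (SE 0.12, adjusted p = 0.508). By group mean the order was KO WD, 443 ± 33.8 CPM (SD, n = 5), WT WD, 376 ± 64.7, KO CDA-HFD, 278 ± 77.6, and WT CDA-HFD, 163 ± 49.3. Every pair of neighbours in this order overlapped. The 7 hepatocyte markers summed to between 32017 and 69162 CPM in WT CDA-HFD livers and to between 33357 and 98921 CPM in KO CDA-HFD livers, liver 5 again being the lowest. Their part in the *Tfr2* values was not tested.

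Markers of other liver cells also differed between the diet groups in which *Hamp2* and *Tfr2* differed. In WT livers the 6 cholangiocyte markers summed to between 34.01 and 164 CPM on WD and between 362 and 782 CPM on CDA-HFD, and the 8 stellate cell markers to between 627 and 911 and between 1435 and 2160 CPM. Of these, 6 of 6 and 6 of 8 were called higher on CDA-HFD, in a comparison that called 51.1% of all genes. Hepatocyte markers, of which 1 was called higher and 3 lower, had a median sum of 68493 CPM on WD and 44224 CPM on CDA-HFD in WT livers. In KO livers that median was 72253 CPM on WD and 74406 CPM on CDA-HFD. The part of these cells in the diet results was not tested.

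*Tfrc*, the transferrin receptor that imports iron, was not called in any comparison. On WD the WT livers were at 52.6, 57.4, 92.2, 59.6 and 58.0 CPM and the KO livers at 44.9, 25.8, 33.1, 42.2 and 82.2 CPM. KO liver 5, the one with little *Hamp*, had the highest *Tfrc* of its group, and the other 4 KO livers lay below all WT livers. The log2 fold change was -0.49 (SE 0.27, adjusted p = 0.552 by edgeR), and without KO liver 5 it was -0.82 (SE 0.20, unadjusted p = 0.00155, adjusted p = 0.156). On CDA-HFD, *Tfrc* ranged from 52.6 to 76.7 CPM in WT and from 34.3 to 69.5 CPM in KO livers (log2 -0.23, adjusted p = 0.439), and without KO liver 5 the log2 fold change was -0.11 (adjusted p = 0.645). Across diets its log2 fold change was -0.08 in WT and 0.18 in KO livers, with adjusted p of 0.696 and 0.713. Without both KO livers numbered 5 the latter was 0.61 (SE 0.22, unadjusted p = 0.0178, adjusted p = 0.0877 by edgeR).

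*Trf*, which encodes transferrin, the iron carrier of plasma, was the most abundant of the 9 per length, with group means of 3341 to 3961 CPM per kilobase of exon. It ranged from 11806 to 13919 CPM in WT WD livers, from 9252 to 14824 in KO WD livers, from 8940 to 13471 in WT CDA-HFD livers and from 7433 to 16237 in KO CDA-HFD livers. KO liver 5 was the lowest of the last group, and the other 4 began at 12887 CPM. No comparison called *Trf*, and its log2 fold changes lay between -0.24 and 0.24. Without KO CDA-HFD liver 5 the log2 fold change between KO and WT on CDA-HFD was 0.39 (adjusted p = 0.165 by edgeR).

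*Fth1*, the ferritin heavy chain that stores iron, was lower in KO than in WT livers on CDA-HFD. WT CDA-HFD livers 1 to 5 were at 681, 647, 755, 647 and 734 CPM and KO CDA-HFD livers at 571, 557, 567, 511 and 517 CPM, so every KO liver was below every WT liver, KO liver 5 included. The level was 1.28-fold lower (log2 -0.35, SE 0.099, adjusted p = 0.0381 by edgeR, exact permutation p = 0.00794). Without KO liver 5 the log2 fold change was -0.33 (adjusted p = 0.0235). Leaving out each liver in turn gave -0.37 to -0.32 and kept the call in 2 of 10 fits, with adjusted p up to 0.0984, and without a filter on low counts the adjusted p was 0.0982. On WD the WT livers were at 701, 703, 692, 686 and 722 CPM, a narrow range, and the KO livers at 627, 581, 893, 572 and 673 CPM, on both sides of it. The log2 fold change there was -0.07 (SE 0.12, adjusted p = 0.882). Across diets KO CDA-HFD livers lay below all KO WD livers without a call (log2 -0.30, SE 0.13, adjusted p = 0.142). The margin was narrow, with KO CDA-HFD liver 1 at 570.7 CPM and KO WD liver 4 at 571.5 CPM. Under the alternatives with all livers kept, that log2 fold change ran from -0.31 to -0.06. WT livers differed across diets by -0.02 (adjusted p = 0.841).

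Macrophages also hold ferritin. The 12 Kupffer cell and macrophage markers summed to between 1758 and 3646 CPM in WT CDA-HFD livers and to between 653 and 2053 CPM in KO CDA-HFD livers. The highest KO value was that of liver 5, within the WT range. Of the 12 markers, 1 was called higher in KO and 4 lower (15.5% of all genes were called). Without KO liver 5, 3 were higher and 6 lower (41.4% of all genes were called). Across diets, the same sum was 446 to 1326 CPM in WT WD livers. The part of these markers in the *Fth1* result was not tested.

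*Slc40a1*, which encodes ferroportin, ranged from 142 to 247 CPM over the 20 livers. Its group means lay between 189 ± 34.1 CPM in KO CDA-HFD and 210 ± 32.5 CPM in WT WD livers (SD, n = 5). Log2 fold changes were -0.07 and -0.05 between KO and WT on WD and CDA-HFD, and -0.11 and -0.09 between diets in WT and KO livers. The adjusted p by edgeR was 0.537 or more, so ferroportin mRNA was not called in any comparison. Per length *Trf* was followed in WT WD livers by *Hamp*, *Fth1* at 202 ± 3.97, *Tfr2* at 86.8 ± 14.9, *Hamp2*, *Slc40a1* at 23.3 ± 3.61, *Hfe* at 12.1 ± 1.40, *Tfrc* at 10.3 ± 2.59 and *Bmp6* at 1.44 ± 0.218 CPM per kilobase of exon (SD, n = 5). Among these, *Hfe* and *Tfrc* did not differ beyond their spread, and *Hamp2* overlapped both of its neighbours. The length used joins the exons of all annotated transcripts, so this order depends on it. It was 3469 bases for *Fth1*, whose first transcript has 929, and 9000 for *Slc40a1*, whose first transcript has 3370. For *Hfe* these were 3572 and 516 bases, and for *Hamp* both were 410.

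**Figure D3:**
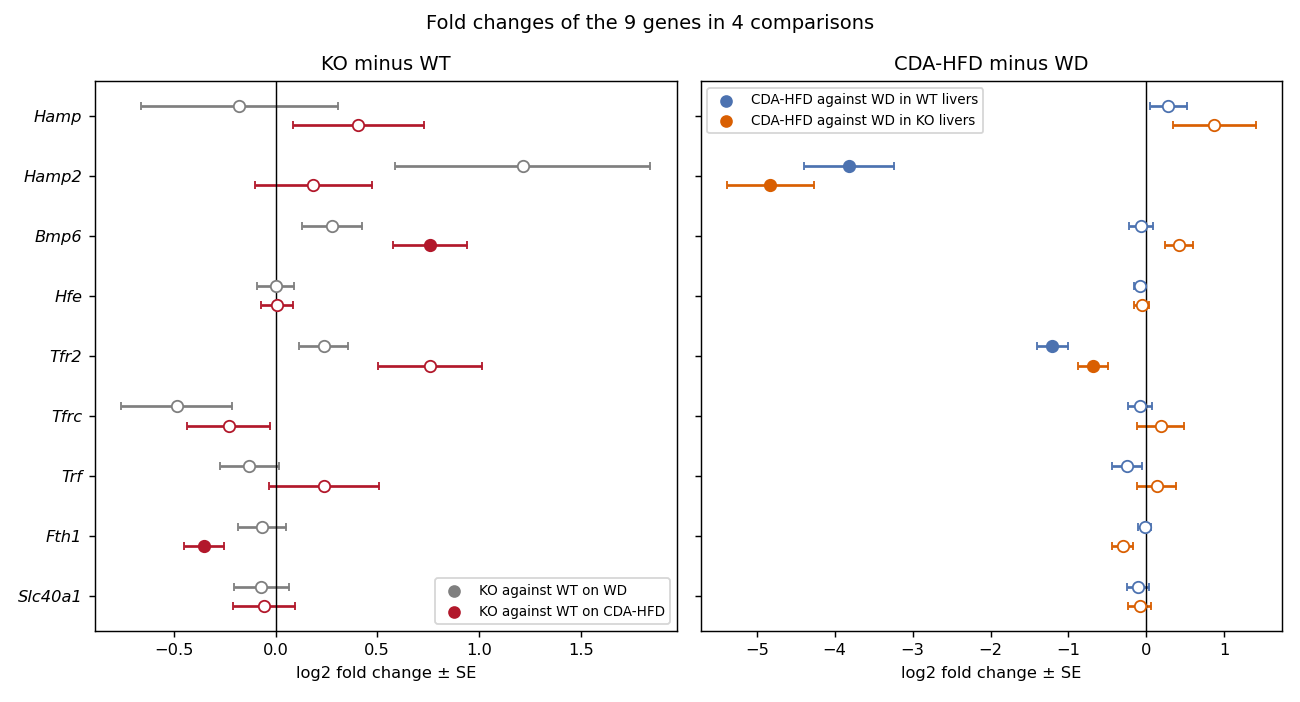
Log2 fold changes ± SE of the 9 genes (y axis) for KO against WT (left) and CDA-HFD against WD (right), from fits on 10 livers each; filled points are called at an adjusted p under 0.05. *Bmp6* (0.76) and *Fth1* (-0.35) are filled on the left for CDA-HFD, and *Hamp2* (-3.82 and -4.83) and *Tfr2* (-1.21 and -0.68) on the right.

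**Figure D4:**
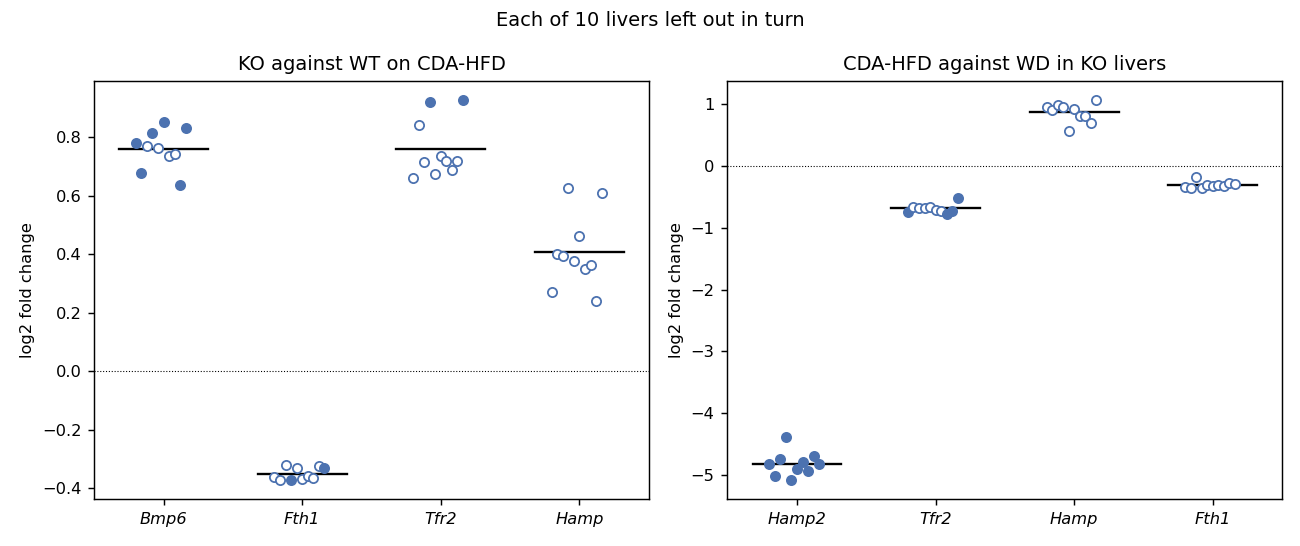
Log2 fold changes of 4 genes with each of 10 livers left out in turn, for KO against WT on CDA-HFD (left) and CDA-HFD against WD in KO livers (right); filled points are called, and the horizontal lines are the values with all livers. On the right *Hamp2* is at -4.38 or lower and filled in all 10 fits and *Tfr2* is filled in 4, and on the left *Bmp6* is filled in 6, *Tfr2* in 2 and *Fth1* in 2.

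Other genes of the pathway were counted from 6 lists. Of all tested genes, 15.5% were called in KO against WT on CDA-HFD, 51.1% across diets in WT livers and 17.0% in KO livers. On WD the share was 0.0757%, and for the interaction 0.556%. The list and marker counts below are to be read beside these shares. Medians over all genes lay between -0.00 and 0.02 in every comparison on the log2 scale. Scaling by library size alone, given below for each count that it changes, moved that median by -0.19 for KO against WT on CDA-HFD, by 0.42 across diets in WT livers and by 0.25 in KO livers. The share of calls that were higher then went from 52.9% to 30.3%, from 50.7% to 85.3% and from 53.9% to 85.9%. Library size alone called 1709 of 17204, 10690 of 16726 and 3924 of 16387 tested genes in these comparisons. On WD, KO against WT called 0 genes of any of the 6 lists in edgeR, and DESeq2 called 1, in the import and export list. At an unadjusted p under 0.05 edgeR gave 4 genes of that list and at most 1 of any other. The interaction also called 0 genes in each list in edgeR, with between 0 and 5 at an unadjusted p under 0.05. Counts at an unadjusted p are to be read beside those over all tested genes. These were 1702 of 15848 on WD and 6076 of 17204 on CDA-HFD for KO against WT. Across diets in KO livers the count was 5452 of 16387, and in the interaction 2736 of 17804. Counts for KO against WT on CDA-HFD are repeated without KO liver 5, where 41.4% of all genes were called, and counts across diets in KO livers without both livers numbered 5, where 14.4% were.

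Of the 16 hepcidin regulators, 4 were higher and 1 lower in KO than in WT livers on CDA-HFD, at a median log2 of 0.00. *Fgl1*, a secreted liver protein that antagonises BMP signalling to hepcidin, fell from 128 to 71.3 CPM (log2 -0.85, SE 0.18, adjusted p = 0.0174). *Tmprss6*, the protease that cleaves the BMP co-receptor hemojuvelin and so lowers hepcidin, rose from 259 to 435 CPM (log2 0.74, SE 0.20, adjusted p = 0.0311). *Pcsk7*, a proprotein convertase, rose by a log2 of 0.39 (adjusted p = 0.0335). *Furin*, the convertase that processes hepcidin, and *Acvr2a*, a type II receptor, rose by 0.53 and 0.34 (adjusted p = 0.0413 and 0.0455). Without liver 5, 5 were higher and 1 lower, and with library size alone 1 was higher and 1 lower. In WT livers across diets 4 were higher and 4 lower on CDA-HFD, where 51.1% of all genes were called (8 and 2 with library size alone). The smallest adjusted p were those of *Furin*, which fell by 0.66, and *Acvr1*, a type I BMP receptor, which rose by 0.57 on the log2 scale (adjusted p = 0.000238 and 0.000357). In KO livers across diets 0 of 16 were called in edgeR (2 at an unadjusted p under 0.05, and 3 higher with library size alone) and 2 of 15 in DESeq2. Without both livers numbered 5, 1 was lower.

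The 7 BMP-SMAD target genes, which report on the signal that drives hepcidin, held 0 calls between KO and WT on CDA-HFD in edgeR and in DESeq2 and 1 at an unadjusted p under 0.05, at a median log2 of 0.04. Without liver 5, 1 was lower. Between diets, *Bambi*, a decoy receptor that BMP signals induce, rose from 3.92 to 17.4 CPM in WT livers (log2 2.14, SE 0.29, adjusted p = 0.000142) and was the only one of the 7 called there (5 higher with library size alone). In KO livers *Smad7* rose by 0.64 (adjusted p = 0.0238) and *Atoh8* by 0.84 (adjusted p = 0.0392), and without both livers numbered 5 the count was also 2. With library size alone 4 were higher.

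Of 14 tested genes of the IL-6 and STAT3 pathway and the acute phase, 1 was higher and 3 lower in KO on CDA-HFD. *Lcn2*, which binds iron siderophores, fell from 284 to 59.5 CPM (log2 -2.26, SE 0.39, adjusted p = 0.0105). *Il6ra*, the IL-6 receptor, rose from 63.7 to 120 CPM (log2 0.91, SE 0.21, adjusted p = 0.0202). *Saa3* fell by 0.86 and *Jak2* fell by 0.36 on the log2 scale (adjusted p = 0.0324 and 0.0426). Without liver 5 the counts were 2 higher and 3 lower, and with library size alone 1 of each. In WT livers 3 were higher and 6 lower on CDA-HFD (5 and 0 with library size alone), and *Saa3* and *Lcn2* rose by 1.96 and 2.06 (adjusted p = 7.98e-05 and 0.00249). In KO livers only *Saa3* was called, higher by 1.41 (adjusted p = 0.00916). Without both livers numbered 5, and also with library size alone, 3 were higher. The neutrophil markers, another source of *Lcn2*, summed to between 16.7 and 45.1 CPM in WT CDA-HFD livers and to between 2.02 and 7.72 CPM in KO CDA-HFD livers, and 4 of 4 tested were called lower. Their part in the *Lcn2* value was not tested.

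Of 12 genes of iron import, reduction and export, 1 was higher and 3 lower in KO on CDA-HFD. *Steap4*, a metalloreductase, fell from 491 to 296 CPM (log2 -0.73, SE 0.13, adjusted p = 0.0114). *Slc11a2*, the iron transporter DMT1, fell by 0.38 (adjusted p = 0.0192). *Flvcr1*, listed here as a reported heme exporter, fell by 1.12 (adjusted p = 0.0252), and other roles of its protein were not considered. *Mon1a*, a trafficking protein, rose by 0.54 (adjusted p = 0.0305). Without liver 5, 2 were higher and 5 lower, and with library size alone 0 were higher and 4 lower in edgeR. In WT livers 4 of 11 tested were higher and 4 lower on CDA-HFD (6 and 1 with library size alone), led by *Flvcr1*, which rose by 1.11, and *Heph*, the ferroxidase hephaestin, which rose by 1.25 (adjusted p = 0.000112 and 0.000368). In KO livers *Slc39a14*, an importer of iron not bound to transferrin, fell by 0.46 (adjusted p = 0.0445), while without both livers numbered 5 the count was 0 in edgeR, and with library size alone 1 was higher and 0 lower.

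Of the 9 genes of iron storage and sensing, 1 was called in KO on CDA-HFD, and 5 higher and 1 lower without liver 5. *Aco1*, which encodes iron regulatory protein 1, rose from 190 to 280 CPM (log2 0.56, SE 0.16, adjusted p = 0.0400), and without liver 5 by 0.67 (adjusted p = 0.00163). In WT livers 6 of 9 were lower and 1 higher on CDA-HFD, at a median log2 of -0.38, whereas library size alone gave 2 lower and 2 higher. *Cisd1*, which encodes an iron-sulfur protein of the outer mitochondrial membrane, fell from 117 to 43.8 CPM (log2 -1.42, SE 0.16, adjusted p = 5.12e-05) and *Aco1* fell by 0.79 (adjusted p = 0.000388). In KO livers *Cisd1* was the only gene called, lower by 1.01 on the log2 scale (from 130 to 65.0 CPM, adjusted p = 0.000562), and without both livers numbered 5 the count was again 1 lower.

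Of the 17 genes of heme synthesis, breakdown and scavenging, 3 were higher and 3 lower in KO on CDA-HFD, 6 and 3 without liver 5, and 2 and 3 with library size alone. *Hmox1*, the heme oxygenase that frees iron from heme, fell from 65.5 to 28.1 CPM with no overlap (log2 -1.22, SE 0.12, adjusted p = 0.00158, exact permutation p = 0.00794). *Cd163*, the macrophage receptor for hemoglobin bound to haptoglobin, rose from 0.853 to 14.6 CPM (log2 4.14, SE 0.80, adjusted p = 0.0137) although KO liver 5, at 0.598 CPM, lay among the WT livers, and *Blvra*, a biliverdin reductase, fell by 0.72 (adjusted p = 0.0159). The synthesis enzymes *Cpox* and *Urod* rose by 0.90 and 0.38 (adjusted p = 0.0199 and 0.0361), and *Slc48a1*, a heme transporter, fell by 0.37 (adjusted p = 0.0356). In WT livers 7 were lower and 3 higher on CDA-HFD, where 51.1% of all genes were called (3 and 8 with library size alone). *Cd163* fell from 18.9 to 0.853 CPM (log2 -4.54, SE 0.53, adjusted p = 5.72e-05). In KO livers 0 were higher and 2 lower in edgeR, among them *Ppox*, a synthesis enzyme, which fell by 0.41 (adjusted p = 0.0328), whereas library size alone gave 2 higher and 0 lower. Without both livers numbered 5, 1 was higher and 2 were lower. Erythroid markers, in which heme synthesis is high, moved with the diet, with a median sum of 204 CPM in WT WD and 113 CPM in WT CDA-HFD livers and 0 higher and 4 lower of 6 tested, and of 249 CPM and 157 CPM in KO livers with 0 higher and 3 lower in edgeR. Their part in the heme results was not tested. *Cd163* belongs to the macrophage markers too, and the summed level of that list moved the other way, as given above. The median of that sum was 2002 CPM in WT and 775 CPM in KO CDA-HFD livers. The part of macrophages in the *Hmox1* value was not tested.

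**Figure D5:**
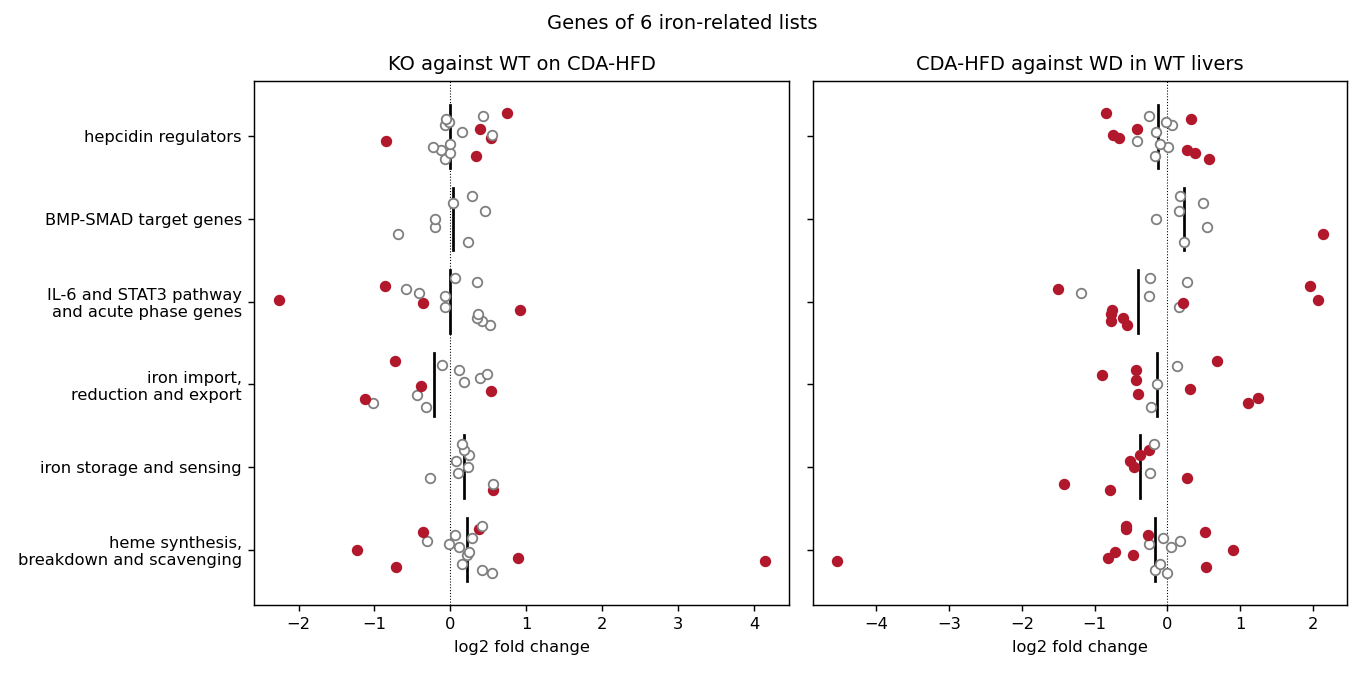
Log2 fold changes of the tested genes of 6 lists (rows), for KO against WT on CDA-HFD (left) and CDA-HFD against WD in WT livers (right); filled points are called and black bars are medians of the lists. The far points in the heme row are *Cd163*, at 4.14 on the left and -4.54 on the right.

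Genes whose log2 CPM followed a member most closely over the 20 livers were read from 11032 genes, as a description that includes the shifts with diet. *Hamp* was followed by *Caskin2*, *Cyp39a1* and *Id2* (Pearson r = 0.75, 0.75 and 0.74), of which *Id2* is a BMP-SMAD target. *Hamp2* was followed by *LOC115486416*, *Adam11* and *Pdk1* (r = 0.92, 0.91 and 0.91). For *Tfrc* these were *Esr1*, *Gtf2a2* and *Utp20* (r = 0.83, 0.77 and 0.76), for *Slc40a1* *Clec1b*, *Mrc1* and *Rasal2* (r = 0.73, 0.73 and 0.71), and for *Bmp6* *Daam1*, *Krba1* and *Rnf31* (r = 0.79 for each). Between *Hamp* and *Hamp2* r was -0.23, and between *Hamp2* and *Tfr2*, which both fell on CDA-HFD, it was 0.74. The 20 livers share 4 groups and these values carry no test. They include KO WD liver 5, where *Hamp* was at 16.03 CPM, and were not computed without it. The part of that liver in the r of *Hamp* with *Id2* and the other genes was not tested.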

How the data were processed

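RNA was measured by RNA-seq in 20 mouse livers. The authors deposited raw counts of reads per gene, as whole numbers without normalization, in a table with 5 tallies of unassigned reads, which were left out. The submitters' processing notes name the build mm10. The aligner and the counting program are not given in the sources used here. The labels name a directional kit and the study's methods another kit. Groups came from the labels, which do not state that the samples are separate mice, so p-values measure the spread between these samples.

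Genes were tested with edgeR 4.0.16 in R 4.3.3 (filterByExpr, TMM scaling, quasi-likelihood F test, Benjamini-Hochberg adjustment over all genes tested), with DESeq2 1.42.0 as an alternative. Each comparison used its own 10 livers, and the interaction used all 20. CPM were computed from TMM-scaled library sizes, and correlations from their log2 with a prior count of 2. SE is the log2 fold change divided by the root of F. CPM of single genes were compared by a two-sided exact permutation test over 252 splits. The edgeR and DESeq2 steps were tested on simulated data. Alternatives changed the scaling (RLE factors or library size alone), the tool (DESeq2), the filter (none, or 10 counts in all libraries), the livers fitted (all 20, or 1 left out) or added a replicate block. Fits without KO livers numbered 5 together, and the list counts under other settings, were added after seeing the data. Figures were drawn with matplotlib in Python.

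The 9 genes and all lists were chosen with earlier results of these data known. All 9 were named. Of each list's called genes, up to 3 with the smallest adjusted p in KO against WT on CDA-HFD and up to 2 in CDA-HFD against WD in WT livers were named, except 1 gene that is not reported here. *Furin*, *Acvr2a*, *Jak2*, *Mon1a*, *Cpox*, *Urod* and *Slc48a1* on CDA-HFD, every list gene given for the diets in KO livers, and the correlations of *Hamp2* with *Hamp* and *Tfr2* were named after their values were seen. For 5 of the 9 genes the 3 genes most alike were taken, among genes whose mean log2 CPM reached 2, predicted genes left out. Coordinates and transcripts are from GENCODE (GRCm38) and promoters from RefSeq (GRCm38.p6).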

Additional observations from a re-analysis of the deposited data

Results flagged for a closer look

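In each of the 36 sets of 5 livers (9 genes in 4 groups), the gap between the most extreme liver and its nearest neighbour was divided by the range of the set. By chance about 1 in 20 sets would pass the critical value of Dixon's test, and 5 of 36 did. *Hamp* in KO WD liver 5, at 16.03 CPM, lay 0.834 of the range below the next liver, at 194 CPM. *Tfrc* in WT WD liver 3, at 92.2 CPM, lay 0.822 of the range above the next, at 59.6 CPM. *Bmp6* was lowest in that same liver, at 4.16 CPM against 5.75 CPM, by 0.731 of the range. *Tfr2* in KO CDA-HFD liver 5, at 141 CPM, lay 0.805 of the range below the next, at 295 CPM, the liver whose first principal component was within the WT range. *Tfr2* in KO WD liver 1, at 385 CPM, lay 0.749 of the range below the next, at 447 CPM.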

How the results depend on the processing

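Of the 9 genes, 0 were called between KO and WT on WD, and 0 in the interaction, in every edgeR and DESeq2 setting run. Between KO and WT on CDA-HFD the count of 2 became 1 with library size alone (*Fth1*) and 1 with no filter (*Bmp6*), and 0 to 3 with a liver left out. It was 0 without WT liver 3, WT liver 5, KO liver 2 or KO liver 3, and 3 without WT liver 4 or KO liver 5. Without KO liver 5, 41.4% of all genes were called. DESeq2 and the fit of all 20 livers gave 3. Across diets the count of 2 in WT livers became 6 with library size alone, *Hamp*, *Tfrc*, *Fth1* and *Hfe* being added as higher on CDA-HFD. With that scaling 10690 of all 16726 tested genes were called, 9120 of them higher. The count of 2 in WT livers stayed the same with any liver left out. In KO livers it was 1 to 2 with a liver left out, *Tfr2* losing its call without KO WD liver 2, 3, 4 or 5 or KO CDA-HFD liver 1 or 2. It was 3 without both livers numbered 5 (*Hamp* added, 14.4% of all genes called). It was also 3 with library size alone (*Bmp6* added, adjusted p = 0.0264, 3924 of all 16387 tested genes called) or with all 20 livers (*Fth1* added, adjusted p = 0.0486). With the replicate block the count was 1 across diets in KO livers (*Tfr2*, log2 -0.73, adjusted p = 0.0561) and 2 on CDA-HFD, where *Fth1* lost its call (adjusted p = 0.0745) and *Tfr2* gained one (adjusted p = 0.0403). In the pathway lists the block took the calls in KO livers across diets from 2 to 0 for the BMP-SMAD targets, from 1 to 0 for import and export, from 2 to 1 for heme and from 1 to 2 for the IL-6 list, and on CDA-HFD those of the regulators from 5 to 3 and of storage from 1 to 2. Correlations of same-numbered livers' deviations ran from -0.39 to 0.37. They were 0.23 to 0.37 for the livers numbered 4 and -0.39 to -0.12 for those numbered 3. Whether same-numbered livers share more than a number cannot be told from these values. The causes of these changes were not tested.

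Log2 fold changes changed sign as follows, and those called are named. For KO against WT on WD, *Hfe* was -0.0074 with RLE factors, -0.0083 with DESeq2, -0.0073 with no filter, -0.022 with library size alone, -0.0045 with 10 counts in all libraries, -0.0017 with all 20 livers and -0.052 to 0.062 with a liver left out, and *Hamp* was -0.31 to 0.10. On CDA-HFD *Hfe* was -0.18 with library size alone, -0.0058 with 10 counts in all libraries and -0.047 to 0.050 with a liver left out, and *Slc40a1* was -0.14 to 0.033. Across diets in WT livers, library size alone gave 0.35 for *Tfrc* (called), 0.16 for *Trf*, 0.30 for *Slc40a1*, 0.40 for *Fth1* (called), 0.35 for *Bmp6* and 0.35 for *Hfe* (called). *Fth1* was 0.019 with 10 counts in all libraries, and with a liver left out *Tfrc* was -0.17 to 0.081, *Fth1* -0.044 to 0.0093 and *Bmp6* -0.17 to 0.011. In KO livers library size alone gave 0.13 for *Slc40a1* and 0.19 for *Hfe*. In the interaction *Hfe* was -0.00040 with RLE factors, -0.16 with library size alone, -0.0054 with 10 counts in all libraries and -0.052 to 0.060 with a liver left out, and *Slc40a1* was -0.16 with library size alone and -0.067 to 0.11 with a liver left out. Of all single-gene values under alternatives, 786 kept direction and side of the threshold, 22 lost the call, 9 gained one and 47 reversed. Depth limits *Hamp2* on CDA-HFD, at 17 to 44 counts per liver, and *Bmp6*.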
